A study of Homo sapiens with 2 samples.

Results

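The genes described here encode the subunits of the hypoxia-inducible factors (HIFs) and the proteins that tie their stability and activity to oxygen. They are EPAS1, HIF1A, ARNT, EGLN1, EGLN2, EGLN3, HIF1AN and VHL, 8 of the 22595 gene symbols in the count tables, chosen by name. The choice was made with earlier results of these data known. The cells were 786-O, a human line from a clear cell renal carcinoma, in which VHL protein is not functional, a feature that both cultures share. One culture was kept in medium with 0 mM glucose and the other in medium with 25 mM glucose, and total RNA of each was sequenced as 1 library. The labels give a short code for each culture, LucG without glucose and LucF with it, which the labels do not explain, and they do not state how long glucose was withheld.

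A HIF is a dimer of an alpha subunit, HIF-1 alpha (HIF1A) or HIF-2 alpha (EPAS1), with the constitutive beta subunit ARNT. With oxygen present, the prolyl hydroxylases EGLN1, EGLN2 and EGLN3 (PHD2, PHD1 and PHD3) hydroxylate prolines of the alpha subunit, VHL binds the hydroxylated form and a ubiquitin ligase marks it for degradation, while HIF1AN (FIH) hydroxylates an asparagine and so blocks coactivator binding. In clear cell renal carcinoma the loss of VHL leaves HIF alpha subunits stable with oxygen present, and 786-O cells are known for making HIF-2 alpha and no functional HIF-1 alpha protein. All of these steps act on protein, which was not measured here.

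The prolines that the EGLN enzymes modify lie in LXXLAP motifs, of which each alpha subunit has a pair. The stretches of the GENCODE release 29 transcripts that encode them are shown because they are the point at which all members but ARNT and HIF1AN meet, with the proline codon in capitals and codons counted from the start of the reading frame.
EPAS1 codon 405: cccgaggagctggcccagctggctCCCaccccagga
EPAS1 codon 531: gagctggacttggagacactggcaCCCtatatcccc
HIF1A codon 402: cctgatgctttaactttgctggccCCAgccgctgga
HIF1A codon 564: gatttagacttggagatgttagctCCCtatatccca

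The libraries held 31345853 counts without glucose and 27317598 with it. With 1 library per condition there is no replicate check, so no test was made and each direction is that between the libraries. The values are shares of each library's RNA, so more transcript of a gene and less RNA of other genes cannot be told apart. Each ratio, without glucose over with glucose, carries a 95% counting interval, which covers counting error only. A gene was called higher when the whole interval lay above 2-fold and lower when it lay wholly below 0.5-fold, which held for 3.75% and 6.2% of the 14240 genes with at least 20 counts over both libraries. The median log2 ratio of those genes was 0.01, with quartiles at -0.45 and 0.42. Of the 9 renal carcinoma markers listed, all were measured, with PAX8 at 232 CPM without glucose and 244 CPM with glucose, whereas 3 of 12 markers of blood, endothelial, fibroblast and liver cells were, and those 12 summed to 4.85 CPM without glucose and 12.7 CPM with glucose. Most of both sums was LUM, a fibroblast marker and itself lower by the size rule (log2 ratio -1.70), at 3.25 CPM without glucose and 10.6 CPM with glucose. Small nucleolar, Cajal body and microRNA genes took 7.99% of the counts without glucose and 5.83% with glucose, and with these genes left out of the library sizes the log2 ratio of EPAS1 was 1.67 in place of 1.65.

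All 8 members were measured. EPAS1 was higher without glucose by the size rule, 0 members were lower and 7 passed neither bound, so that the share called in either direction, 1 of 8, is close to the 9.95% of all measured genes. With 1.5-fold asked for, EPAS1 was again the only member called, against 10.2% of all measured genes higher, 12.6% lower and 22.8% in either direction. The intervals of 5 members, HIF1A, EGLN1, EGLN2, HIF1AN and VHL, lay wholly below a ratio of 1, as did those of 36.5% of all measured genes. The intervals of ARNT and EGLN3 held a ratio of 1. The median log2 ratio of the 8 members was -0.33.

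EPAS1, on the plus strand of chromosome 2 from 46524541 to 46613842 in hg19, had 12963 counts without glucose and 3741 with glucose. Per length this was 81.9 RPKM without glucose (counting interval 80.5 to 83.3) and 26.1 RPKM with glucose (25.3 to 26.9). The library without glucose thus held 3.14-fold more EPAS1 transcript (interval 3.03 to 3.26), a log2 ratio of 1.65, and 2.49% of all measured genes had a higher ratio. Each of the 16 exons of the EPAS1 model had more than 10 reads in both libraries.

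HIF1A, on the plus strand of chromosome 14 from 62162119 to 62214977, was slightly lower without glucose, within 2-fold. It had 5824 counts without glucose and 6259 with glucose, or 46.8 RPKM without glucose (45.6 to 48.1) and 55.6 RPKM with glucose (54.2 to 57.0). Its log2 ratio was -0.25 (interval -0.30 to -0.19), between the quartiles of all measured genes. Per length of the whole gene model, EPAS1 was the more abundant alpha transcript without glucose and HIF1A with glucose. EPAS1 made up 63.6% of their summed RPKM without glucose and 31.9% with glucose, and HIF1A made up 36.4% without glucose and 68.1% with glucose. The ratio of EPAS1 to HIF1A counts, which needs no scaling of the libraries, was 3.72-fold higher without glucose (exact interval of the odds ratio 3.54 to 3.92). The summed RPKM of the alpha genes was 129 without glucose and 81.7 with glucose, 1.58-fold more.

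ARNT, the partner that both alpha subunits need, lies on the minus strand of chromosome 1 from 150782181 to 150849244. It had 1757 counts without glucose and 1557 with glucose, or 11.7 RPKM without glucose (11.2 to 12.3) and 11.5 RPKM with glucose (10.9 to 12.1). The intervals overlap, and the log2 ratio of 0.03 (-0.07 to 0.13) turned to -0.02 when the libraries were scaled by total counts. The alpha transcripts outnumbered ARNT per length 11.0-fold without glucose and 7.11-fold with glucose. EPAS1 stood at 6.97 times the ARNT RPKM without glucose and 2.27 times with glucose. HIF1A stood at 3.99 times the ARNT RPKM without glucose and 4.84 times with glucose, so the excess over ARNT was larger for EPAS1 and smaller for HIF1A.

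**Figure D1:**
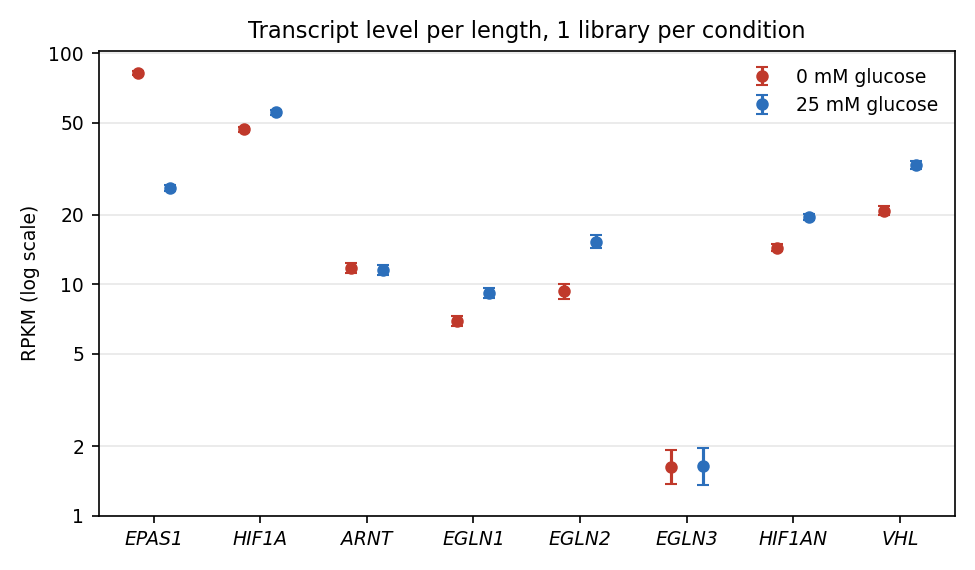
Level per length of the 8 genes in the library with 0 mM glucose (red, left) and the library with 25 mM glucose (blue, right), in RPKM on a log axis, with 95% counting intervals. EPAS1 stands at 81.9 RPKM without glucose and 26.1 RPKM with glucose, whereas ARNT and EGLN3 have overlapping intervals.

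The tables also give, for each gene model, how many exons had more than 10 reads, and by this measure HIF1A had few for its depth. Of its 15 exons, 10 passed in the library without glucose and 11 in the library with glucose, although the gene averaged 388 reads per exon without glucose and 417 with glucose. Which 5 exons without glucose and which 4 with glucose had 10 reads or fewer is not stated in the tables. Of the 2 RefSeq transcripts in the model, one corresponds to a GENCODE transcript with 15 exons and the other to one with 14. Among gene models with at least 10 exons and at least 300 reads per exon, limits chosen after the values were seen, 1.24% of 727 without glucose and 2.31% of 692 with glucose had as small a share of exons past 10 reads. All exons passed in 73.0% of these models without glucose and 70.4% with glucose. EPAS1, HIF1AN, EGLN1 and VHL had every exon past 10 reads in both libraries, ARNT had 22 of 23 and EGLN2 6 of 7. The RPKM of HIF1A averages over the whole 4044 bases of its model, including the exons with few or no reads. Comparisons of its level with other members, such as its place below EPAS1 without glucose, hold for that length. A length without those exons was not tried. The odds ratio of EPAS1 to HIF1A counts does not use length.

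**Figure D2:**
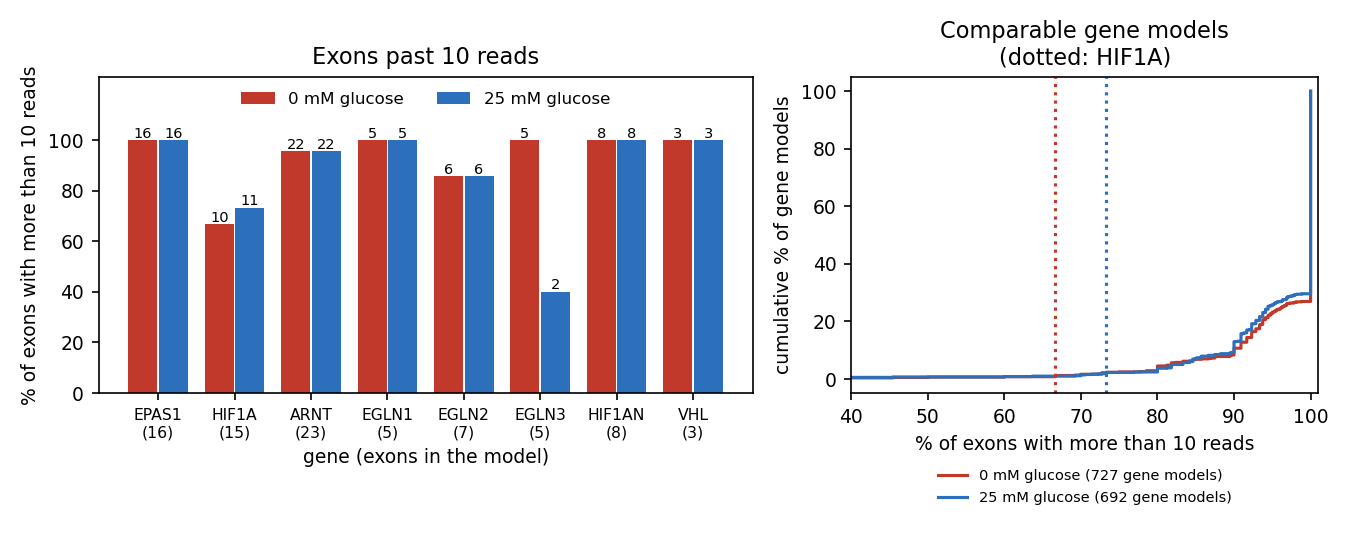
Left, share of each gene's exons with more than 10 reads in the libraries with 0 mM (red) and 25 mM glucose (blue), with the number of such exons above each bar and the exons of the model in brackets. Right, cumulative share of gene models with at least 10 exons and at least 300 reads per exon by the same measure, with dotted lines at HIF1A, which lies at 66.7% without glucose and 73.3% with glucose, in the low tail.

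Of the prolyl hydroxylase transcripts, EGLN1 and EGLN2 had intervals wholly below a ratio of 1, EGLN3 did not, and 0 passed the size rule. EGLN2, on the plus strand of chromosome 19 from 41305048 to 41314337, had 631 counts without glucose and 938 with glucose, or 9.32 RPKM without glucose (8.60 to 10.1) and 15.3 RPKM with glucose (14.3 to 16.3). This was 1.64-fold lower (1.48 to 1.82), a log2 ratio of -0.71, the lowest of the 8 members, and 16.1% of all measured genes had a lower one. EGLN1, the main hydroxylase of HIF alpha in most cells with oxygen present, lies on the minus strand of chromosome 1 from 231499497 to 231560790. It had 1510 counts without glucose and 1813 with glucose, or 6.93 RPKM without glucose (6.58 to 7.28) and 9.18 RPKM with glucose (8.76 to 9.61), a log2 ratio of -0.41.

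EGLN3, on the minus strand of chromosome 14 from 34393421 to 34420284, is itself a well-known HIF target and was the least abundant member. It had 136 counts without glucose and 124 with glucose, or 1.63 RPKM without glucose (1.37 to 1.93) and 1.64 RPKM with glucose (1.36 to 1.95). Its ratio was 0.994 with an interval from 0.773 to 1.28, so that a difference within this range was not detectable at this depth. All 5 of its exons had more than 10 reads without glucose and 2 of 5 with glucose, at 27.2 reads per exon without glucose and 24.8 with glucose, not far above the 10 reads that the tables ask for.

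The summed RPKM of the EGLN genes was 17.9 without glucose and 26.1 with glucose. EGLN2 was the most abundant of them per length in both libraries, with 52.1% of the sum without glucose and 58.6% with glucose. EGLN1 made up 38.8% without glucose and 35.2% with glucose, and EGLN3 9.11% without glucose and 6.28% with glucose. The odds ratio of EGLN3 to EGLN2 counts, without glucose over with glucose, was 1.63 (1.24 to 2.14), and that of EGLN1 to EGLN2 counts 1.24 (1.09 to 1.40), so EGLN2 was the lowest of the family relative to the others. Set against the alpha subunits they modify, the EGLN genes summed to 0.139 of the alpha RPKM without glucose and 0.320 with glucose.

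HIF1AN, the asparaginyl hydroxylase, lies on the plus strand of chromosome 10 from 102295641 to 102313681. It had 3053 counts without glucose and 3751 with glucose, or 14.4 RPKM without glucose (13.9 to 14.9) and 19.5 RPKM with glucose (18.9 to 20.1). Its log2 ratio of -0.44 (-0.51 to -0.37) lay beside that of EGLN1, and the odds ratio of HIF1AN to EGLN1 counts was 0.977 with an interval from 0.898 to 1.06. It was the most abundant of the 4 hydroxylase transcripts per length without glucose, with 44.6% of their sum, and also with glucose, with 42.8%.

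VHL, the substrate receptor of the ligase, lies on the plus strand of chromosome 3 from 10183319 to 10193746. It had 1891 counts without glucose and 2687 with glucose, or 20.9 RPKM without glucose (19.9 to 21.8) and 32.7 RPKM with glucose (31.5 to 34.0). It was 1.57-fold lower without glucose (1.48 to 1.66), a log2 ratio of -0.65. All 3 of its exons had more than 10 reads in both libraries. By RPKM the VHL transcript stood above 73.6% of gene models with at least 20 counts without glucose and above 83.0% of them with glucose. The odds ratio of EPAS1 to VHL counts was 4.92 (4.59 to 5.28).

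Ordered by RPKM, the library without glucose ran EPAS1, HIF1A, VHL, HIF1AN, ARNT, EGLN2, EGLN1 and EGLN3, and the library with glucose HIF1A, VHL, EPAS1, HIF1AN, EGLN2, ARNT, EGLN1 and EGLN3. The highest member exceeded the lowest 50.3-fold without glucose and 33.9-fold with glucose. In each library 0 of the 7 neighbouring pairs had overlapping counting intervals. These do not include the spread between cultures or the effect of the length used for HIF1A.

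**Figure D3:**
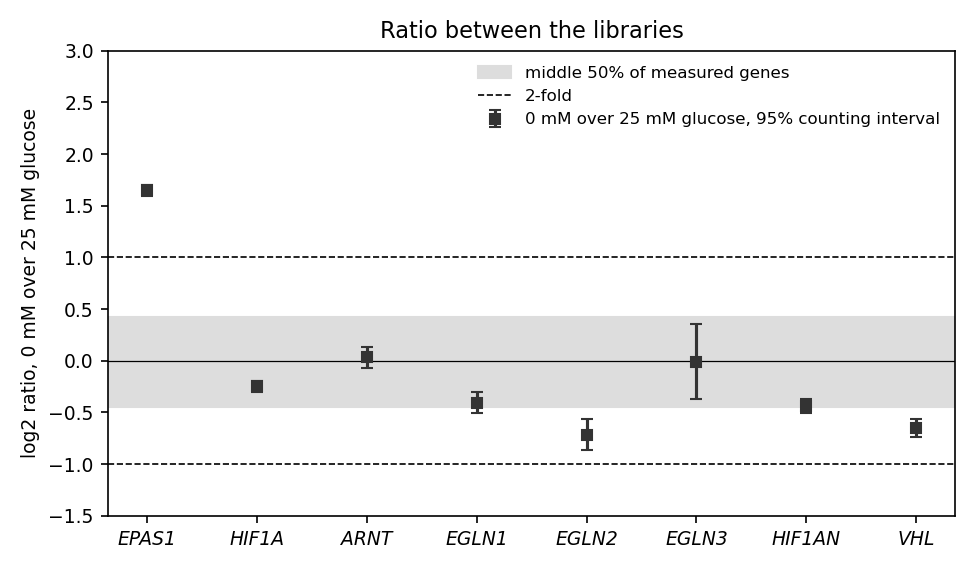
Log2 ratio of the library with 0 mM glucose to the library with 25 mM glucose for each gene, with 95% counting intervals; the grey band spans the quartiles of all 14240 measured genes, -0.45 to 0.42, and dashed lines mark 2-fold. EPAS1, at 1.65, lies beyond 2-fold, and EGLN2 and VHL lie below the band.

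The region just before the gene start was read for 7 of the 8 members from the RefSeq promoter table (GRCh38.p14), in which HIF1A and EGLN2 have a pair of entries each; VHL was not matched. The HIF binding core, in its forms ACGTG and GCGTG, was searched on both strands in the 250 bases before each start. ACGTG was present in 2 members, EGLN1 and EGLN2, and in 18.5% of all 35116 promoters in the table. GCGTG was present in 2 others, EPAS1 and HIF1A, and in 32.2% of all promoters, and either form in 43.2%. A pair of motifs of the ER stress response was searched the same way. The ATF4-CHOP composite site TGATGNAA occurred in 3.14% of all promoters, the ER stress element (CCAAT and CCACG with 9 bases between them) in 0.0740%, and neither in the entries of these 7 members. A match is a description of the letters and not of binding. The sequences of EPAS1, the member that passed the size rule, and of the members with ACGTG are shown 5′ to 3′ on the gene's strand, with either form of the core in capitals.
EPAS1, chr2:46297157-46297406, plus strand: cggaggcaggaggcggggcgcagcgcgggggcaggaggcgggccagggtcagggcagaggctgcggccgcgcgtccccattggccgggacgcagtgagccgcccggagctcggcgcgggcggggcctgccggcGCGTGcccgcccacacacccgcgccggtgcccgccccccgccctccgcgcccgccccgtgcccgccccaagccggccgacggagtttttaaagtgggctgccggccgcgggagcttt
EGLN1, chr1:231422288-231422537, minus strand: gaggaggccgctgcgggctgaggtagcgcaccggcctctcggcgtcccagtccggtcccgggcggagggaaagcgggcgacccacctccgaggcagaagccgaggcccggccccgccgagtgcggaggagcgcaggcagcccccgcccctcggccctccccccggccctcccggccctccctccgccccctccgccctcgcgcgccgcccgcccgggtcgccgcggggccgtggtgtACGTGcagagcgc
EGLN2, chr19:40798941-40799190, plus strand: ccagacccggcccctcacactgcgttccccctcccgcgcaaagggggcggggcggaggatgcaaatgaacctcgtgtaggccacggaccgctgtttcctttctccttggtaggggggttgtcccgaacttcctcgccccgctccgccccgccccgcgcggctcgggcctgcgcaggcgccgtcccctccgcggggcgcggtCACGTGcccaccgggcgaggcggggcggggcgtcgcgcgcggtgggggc
In EGLN1 the core starts 13 bases before the gene start. In EGLN2 the capitals cover ACGTG on each strand, the matches overlapping as CACGTG. The log2 ratio was 1.65 for EPAS1 and -0.25 for HIF1A, which have GCGTG, and -0.41 for EGLN1 and -0.71 for EGLN2, which have ACGTG.

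The genes that work around these members were described from 8 lists with 111 genes, of which 105 were measured. By the size rule 10 of the 105 were higher and 6 were lower, and their median log2 ratio was 0.07. Among all measured genes 3.75% were higher and 6.2% lower, the shares to set beside the counts of each list as well. The list of targets linked mainly to HIF-2 held 7 of the 10 higher. The VHL ligase and its ubiquitin and NEDD8 enzymes had 0 of 11 measured genes past the rule and a median of -0.05, with CUL2, the scaffold of the ligase, at 93.3 CPM without glucose and 106 CPM with glucose. NEDD8, the modifier that activates cullins, had the lowest ratio among them at -0.90. The 20 regulators of HIF stability had a median of 0.14, with 2 genes past the rule upward and 0 downward. They were PLK3, a stress-responsive kinase, at 12.7 CPM without glucose and 4.60 CPM with glucose (1.47), and OS9, an ER lectin of protein degradation reported to bind HIF-1 alpha, at 182 CPM without glucose and 74.5 CPM with glucose (1.29).

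The 10 HIF coactivators and their inhibitors had a median of 0.06, with 1 gene past the rule upward and 0 downward. CITED2, a HIF target that competes with HIF alpha for EP300 and CREBBP, had 248 CPM without glucose and 80.1 CPM with glucose, a 3.09-fold difference (log2 ratio 1.63, interval 1.56 to 1.70). EP300 and CREBBP themselves had log2 ratios of -0.08 and 0.00. The bHLH-PAS factors other than the members had a median of -0.24 over 10 measured genes, of which 0 passed upward and 2 downward, namely SIM1 at 1.89 CPM without glucose and 7.54 CPM with glucose (-2.00) and ARNT2, a paralog of ARNT, at 9.04 CPM without glucose and 23.7 CPM with glucose (-1.39).

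The 25 other dioxygenases that use oxygen had a median of 0.07, with 0 genes past the rule upward and 1 downward. TET1, a DNA demethylase, had 6.02 CPM without glucose and 17.6 CPM with glucose (-1.55). Of 4 factors linked to HIF-2 alpha translation, ACO1 was lower, at 103 CPM without glucose and 239 CPM with glucose (-1.22, interval -1.28 to -1.16). ACO1 encodes IRP1, which represses translation of EPAS1 mRNA through an iron-responsive element, and its paralog IREB2 stood at -0.10.

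The targets linked mainly to HIF-2 had a median of 0.65 over 15 measured genes. Of these, 7 passed the rule upward and 1 downward, against 3.75% and 6.2% of all measured genes. With scaling by total counts 6 passed upward, since PLIN2, a lipid droplet protein whose log2 ratio of 1.09 had an interval of 1.03 to 1.15, lost its call. The 4 with the largest ratios were NDRG1, a stress-responsive gene (2.84), ADM, adrenomedullin (2.30), ANGPTL4, an inhibitor of lipoprotein lipase (2.21), and STC2, a secreted glycoprotein (2.18). Several of these are also known targets of HIF-1 and of other stress pathways, so this list does not separate HIF-2 from HIF-1. The gene below the bound was BHLHE41, a repressor of the clock (-1.81), and CCND1, cyclin D1, had 359 CPM in either library. The targets linked mainly to HIF-1 had a median of -0.05 over 10 measured genes, of which 0 passed upward and 1 downward, LDHA, a lactate dehydrogenase subunit (-1.30). The difference between these lists was not tested. All lists were chosen with earlier results of these data known, so their counts and medians describe the listed genes only. EGLN3, a HIF target among the members, stood at -0.01, and EGLN1, another, at -0.41.

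**Figure D4:**
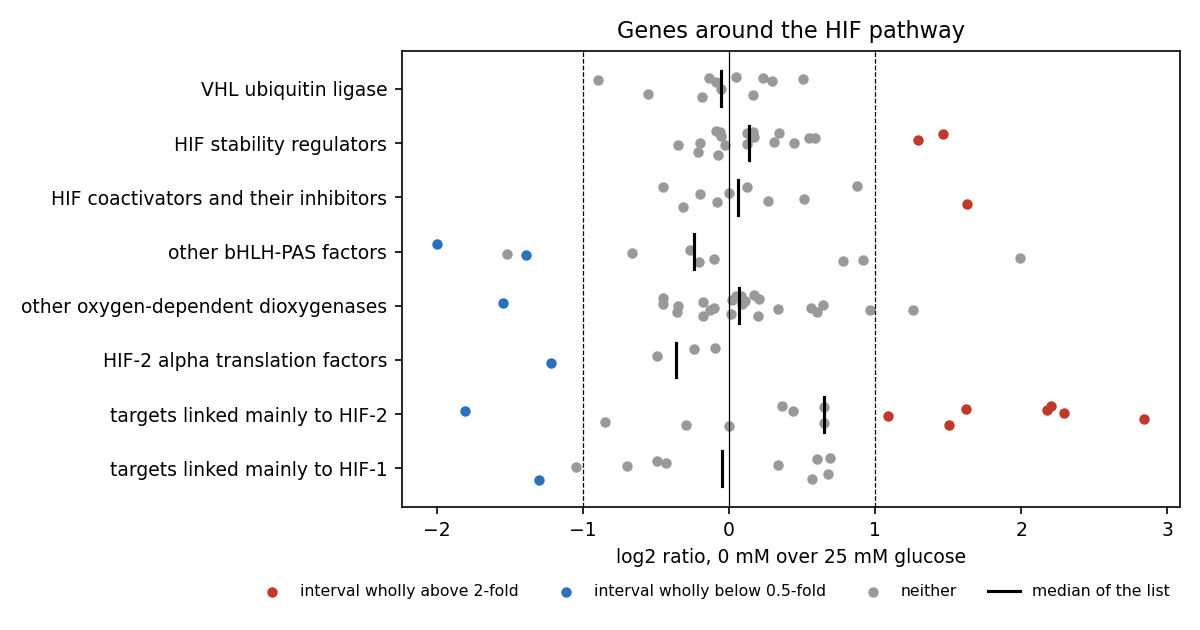
Log2 ratio of the library with 0 mM glucose to the library with 25 mM glucose for each measured gene of the 8 lists around the HIF pathway; each point is a gene, a black bar the median of a list, red and blue points are genes whose counting interval lies wholly beyond 2-fold up or down, and dashed lines mark 2-fold. The list of targets linked mainly to HIF-2, chosen like the others with earlier results of these data known, has 7 of the 10 red points.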

How the data were processed

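RNA libraries of 786-O cells were analysed, 1 per condition. The deposited counts are whole numbers per gene model without normalization, and the deposited RPKM values are per kilobase and per 1e6 reads, per the file headers. Reads were placed on hg19, per the submitters' processing notes. How libraries were prepared, aligned and counted, and whether strand was used, are points not given in the sources used here. Of 24364 rows, 528 that repeated the place, length and counts of another were dropped, and the rest were summed per symbol. No row overlapped a member on either strand.

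Effective library sizes came from TMM (edgeR 4.0.16, R 4.3.3) over genes with at least 20 counts, with factors of 0.981 without glucose and 1.02 with it. CPM and RPKM were computed from the counts and these sizes; the authors' deposited RPKM was an alternative. Ratios have no pseudocount. Intervals of ratios are exact Clopper-Pearson intervals of the share of a gene's counts in each library, intervals of levels are exact Poisson intervals, and intervals between members are those of the conditional odds ratio (scipy 1.17.1); PCR copies are not independent molecules, so all cover counting error only. Where a gene had no count in a library, 3 counts served as the floor. The procedure was run on simulated counts that held counting error alone, so that run says nothing about the spread between cultures.

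The members and lists were chosen with earlier results of these data known. The genes named are all members and, of each list, up to 4 past the size rule with the largest absolute log2 ratio; NEDD8, CUL2, EP300, CREBBP, IREB2, CCND1, BHLHE41 and PLIN2 and the markers PAX8 and LUM were named after their values were seen. Alternatives were other scalings (total counts, upper quartile, DESeq2 1.42.0 size factors, TMM without small RNA genes), 1 CPM added to both libraries, other sizes asked for and no count minimum; TMM over all genes and the limits of the exon comparison were added after seeing the data.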

Additional observations from a re-analysis of the deposited data

How the results depend on the processing

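No paired analysis was possible because there was a single library per condition, and for the same reason no replicate could be left out. Over the scalings and with 1 CPM added, EPAS1 stayed past the size rule, with log2 ratios from 1.59 to 1.69, and the other members stayed within 2-fold, VHL from -0.71 to -0.61 and EGLN2 from -0.77 to -0.68. The sign of ARNT (-0.02 to 0.07) and of EGLN3 (-0.07 to 0.03) depended on the scaling. Scaling by total counts left 9 pathway genes higher in place of 10, and 6 HIF-2 targets in place of 7. With intervals past 1.5-fold in place of 2-fold, EPAS1 was still the only member called, while 17 pathway genes were higher and 10 lower, and 1451 of all measured genes were higher and 1800 lower. With the ratio itself past 2-fold, without its interval, 1045 of all measured genes were higher and 1515 lower. With genes of at least 1 count, the median of the HIF-2 target list was 0.87 and that of the HIF-1 target list -0.43. The authors' deposited RPKM of HIF1A with glucose, 57.2, lay just outside the counting interval of the recomputed value. With gene models of at least 1000 reads per exon, 2.96% of 135 without glucose and 2.94% of 102 with glucose had as small a share of exons past 10 reads as HIF1A, and with at least 100 reads per exon 1.79% of 2575 without glucose and 2.9% of 2416 with glucose. Depth limited EGLN3 most.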

Other observations

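The genes with levels most like those of EPAS1 in both libraries, by Euclidean distance in log2 CPM over the 2 libraries and with no correction for length, were AKAP12, a scaffold of protein kinase A, with 440 CPM without glucose and 137 CPM with glucose, DNAJB1, a heat shock cochaperone, with 456 CPM without glucose and 130 CPM with glucose, and AHNAK2 with 394 CPM without glucose and 146 CPM with glucose. For EGLN2, the member with the lowest ratio, they were RASSF2 with 20.7 CPM without glucose and 34.3 CPM with glucose, ZNF776 with 20.8 CPM without glucose and 33.2 CPM with glucose, and RDH10 with 21.0 CPM without glucose and 33.5 CPM with glucose. Over only 2 libraries, such likeness describes these levels alone.

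A few relatives and targets of the HIFs were at or near 0. HIF3A, the third alpha subunit, had 5 counts without glucose and 9 with glucose. EPO, erythropoietin, had 0 counts in both libraries, which allows up to 0.0976 CPM without glucose and 0.108 CPM with glucose. CA9, carbonic anhydrase 9 and a marker of HIF-1 activity, had 0 counts without glucose and 4 with glucose. These genes were chosen after their values were seen.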
